A study of Homo sapiens with 12 samples.

Results

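The RNA levels of 10 genes were followed, which were CXCL1, CXCL2, CXCL3, CXCL8, CCL20, LCN2, NFKB1, NFKB2, NFKBIA and TNFAIP3. They are textbook targets of the transcription factor NF-kB, and were picked by name from the 18665 genes of the deposited tables, in which 10 of 10 were found. The study asked what inhibition of ALDH1A enzymes or loss of the transcription factor ZBTB7B does to tumor cells. RNA sequencing covered 12 libraries labelled HT29, a human colon carcinoma cell line, in 4 groups of 3. The first pair of groups is CM10, cells given the ALDH1A inhibitor of that name, with its controls CTRL_CM10. The second pair is shZBTB7B, cells in which ZBTB7B was targeted by RNA interference with a hairpin, with its controls CTRL_shZBTB7B. No other allele or agent is named in the labels, which also give no dose, exposure time, vehicle, hairpin sequence or control vector, and do not say whether the hairpin line was a clone. They do not say either whether replicates were grown as separate cultures. A p-value below therefore reflects the spread between libraries alone, and this spread may be technical.

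NF-kB is a family of dimeric transcription factors that bind kappa B sites in DNA and are held in the cytoplasm by IkB proteins until a signal such as TNF, interleukin-1 or a microbial product frees them. In epithelial and endothelial cells they switch on chemokines that draw neutrophils and lymphocytes, and at the same time induce their own inhibitors, which ends the response. Colon carcinoma lines are known to secrete CXC chemokines of this kind.

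The unit is TPM, the standard measure of transcript abundance, which scales every library to the same total and for gene length, so it can be set side by side between genes but holds no sequencing depth. Counting error and detection limits could therefore not be given. The genes behind the labels were read first. ZBTB7B itself had 2.55, 5.97 and 0 TPM in shZBTB7B libraries, against 22.34, 25.06 and 25.36 TPM in CTRL_shZBTB7B libraries. ALDH1A1 had 6.95, 11.14 and 12.67 TPM in CM10 libraries, against 110.1, 110.22 and 171.95 TPM in CTRL_CM10 libraries. Lower without overlap held for 42.4% of all genes tested with the hairpin and 28.9% with CM10, so neither gene settles its label. CM10 inhibits the enzyme, whose activity RNA does not measure. In the hairpin experiment ALDH1A1 had 0, 855.14 and 60.38 TPM in shZBTB7B libraries and 21.96, 57.76 and 31.82 TPM in CTRL_shZBTB7B libraries. Libraries differed widely in how many genes they held above 0, with 45.5 to 69.9% of genes in CM10, 70.9 to 78.4% in CTRL_CM10, 51.4 to 76.9% in shZBTB7B and 85.6 to 87.0% in CTRL_shZBTB7B. Of 1888 genes that averaged 50 TPM or more over all libraries, up to 368 were listed at 0 in a CM10 library, so a value of 0 is described here only as listed at 0. Copies of the MTRNR2L family took 73.8% and 46.0% of the TPM in CTRL_CM10 replicates 2 and 3 and 29.9% in shZBTB7B replicate 2, which lowers all other genes there. Markers went against the HT29 label in part. CDX2, the intestinal transcription factor, exceeded 1.38 TPM only in shZBTB7B replicate 1 with 5.32 TPM, whereas a list of stomach genes reached 76601 TPM in shZBTB7B replicate 2 and a list of endothelial genes 471.96 TPM in CTRL_shZBTB7B replicate 1. The list of 12 colon carcinoma genes, CDX2 among them, was uneven. It summed to 1906.95 TPM in shZBTB7B replicate 1, 1318.16 TPM in CTRL_CM10 replicate 2 and 2307.73 TPM in CTRL_shZBTB7B replicate 3. In CM10 replicate 2 it summed to 43.28 TPM. The groups are therefore called by their labels only, and for bulk RNA fewer cells of a type and less RNA per cell cannot be told apart.

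CXCL1, CXCL2, CXCL3 and CXCL8 lie on chromosome 4 within 358.678 kb (GRCh37, GENCODE annotation). CXCL8 spans chr4:74606236-74609433 on the plus strand, CXCL1 chr4:74735110-74737025 on the plus strand, CXCL3 chr4:74902306-74904524 on the minus strand and CXCL2 chr4:74962757-74964913 on the minus strand. The coding sequences of CXCL1, CXCL2 and CXCL3 are 321 bases long each and 93.5% (CXCL1 and CXCL2), 90.7% (CXCL1 and CXCL3) and 94.4% (CXCL2 and CXCL3) identical. Reads may be given to the wrong copy, and the values of these 3 genes below are uncertain to that extent. Full runs of 50 bases were shared less. Of those in the CXCL1 transcript 5.33% occurred in CXCL2 and 0.533% in CXCL3, and of those in CXCL2 5.07% occurred in CXCL3. The stretch from coding base 114 to 233 was chosen as the most alike 120 bases. It is the same for all 3 genes at 115 of 120 positions, with the 5 differing positions in capitals.

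CXCL1: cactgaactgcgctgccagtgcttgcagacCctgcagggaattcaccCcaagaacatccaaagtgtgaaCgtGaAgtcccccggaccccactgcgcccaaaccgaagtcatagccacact
CXCL2: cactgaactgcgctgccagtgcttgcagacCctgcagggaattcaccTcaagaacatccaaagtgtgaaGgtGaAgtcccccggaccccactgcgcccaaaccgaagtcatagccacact
CXCL3: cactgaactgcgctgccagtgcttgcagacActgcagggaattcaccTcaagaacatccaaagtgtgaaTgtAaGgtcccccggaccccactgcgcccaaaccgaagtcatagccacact

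The other members lie apart, at chr2:228670455-228682280 (CCL20, plus), chr4:103422487-103538459 (NFKB1, plus), chr10:104153867-104162281 (NFKB2, plus), chr14:35870285-35873955 (NFKBIA, minus), chr6:138188351-138204451 (TNFAIP3, plus) and chr9:130911350-130915732 (LCN2, plus).

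Promoters were read to show where kappa B sites lie in these genes. RefSeq windows from 250 bases before to 50 bases after the start (GRCh38.p14) matched 10 of 10 members with 13 windows. The kappa B consensus, searched on both strands with overlapping matches counted, occurred in 9 of the 10 genes. By window it occurred in 10 of the 13, beside 11.3% of all 35116 windows. The genes were picked as NF-kB targets, so many matches could be foreseen and these shares carry no test. CXCL8 held no full match to the letters searched (GGGRNNYYCC, with R for A or G, Y for C or T and N for any base). Its window does hold tggaatttcc, which departs from them at the first base alone, so the missing match does not show that a site is absent. An AP-1 motif, TGANTCA, which reads the same on both strands, occurred for CXCL8 and LCN2, against 7.71% of all windows. The genes that carry the results below, and CXCL1 beside its close copy CXCL2, are shown over 60 bases upstream of their start, with kappa B matches in capitals. In NFKB2 and in the CXC genes the longer capital runs are overlapping matches on both strands.

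CXCL1, chr4:73869289-73869348, plus: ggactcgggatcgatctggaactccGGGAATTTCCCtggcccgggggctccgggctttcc
CXCL2, chr4:74099239-74099298, minus: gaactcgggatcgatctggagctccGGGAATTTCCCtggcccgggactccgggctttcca
NFKB2, chr10:102394460-102394519, plus: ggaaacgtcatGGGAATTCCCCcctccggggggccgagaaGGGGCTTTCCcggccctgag
NFKBIA, chr14:35404796-35404855, minus: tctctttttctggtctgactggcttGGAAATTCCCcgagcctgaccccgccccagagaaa
TNFAIP3, chr6:137867173-137867232, plus: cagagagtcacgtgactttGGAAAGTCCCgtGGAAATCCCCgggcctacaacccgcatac
LCN2, chr9:128149253-128149312, plus: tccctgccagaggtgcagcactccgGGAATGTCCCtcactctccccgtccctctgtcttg

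The match began 79 bases before the start in CXCL1 and CXCL3 and 78 bases before it in CXCL2, and CCL20 had one that also began 79 bases before its start.

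**Figure D1:**
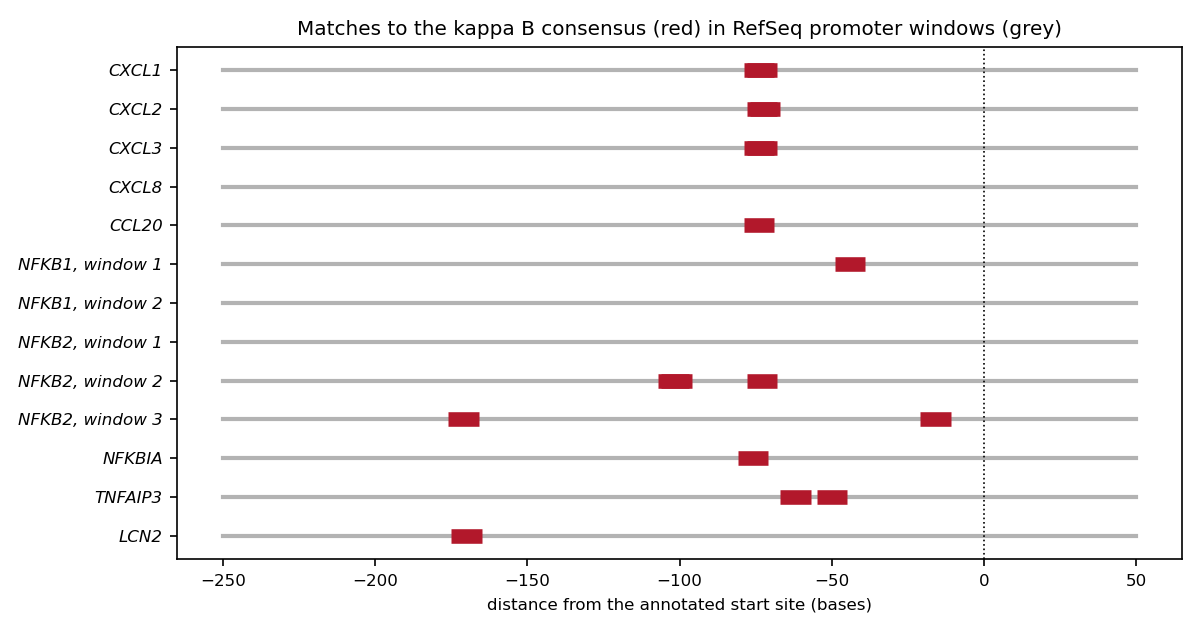
Matches to the kappa B consensus (red) in the 13 RefSeq promoter windows of the 10 genes (grey lines), by distance from the annotated start site in bases. Matches lie in 10 windows, those of the CXC copies at nearly the same distance, and the CXCL8 window has no full match.

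Across the 12 libraries NFKBIA and NFKB1 were the 2 members above 0 everywhere, and CXCL2 and CCL20 were the most often listed at 0. NFKBIA ranged between 2.53 and 205.25 TPM and NFKB1 between 1.00 and 31.90 TPM. CXCL2 and CCL20 were listed at 0 in 8 of 12 libraries each, CXCL3 and LCN2 in 6, CXCL1 in 5, CXCL8 in 3, and NFKB2 and TNFAIP3 in 2. The highest library of 9 members was a CTRL_shZBTB7B library, and that of LCN2 was shZBTB7B replicate 3. Between 4 and 5 members were above 0 in each CM10 library, 5 to 9 in CTRL_CM10, 5 to 9 in shZBTB7B and 8 to 10 in CTRL_shZBTB7B libraries.

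**Figure D2:**
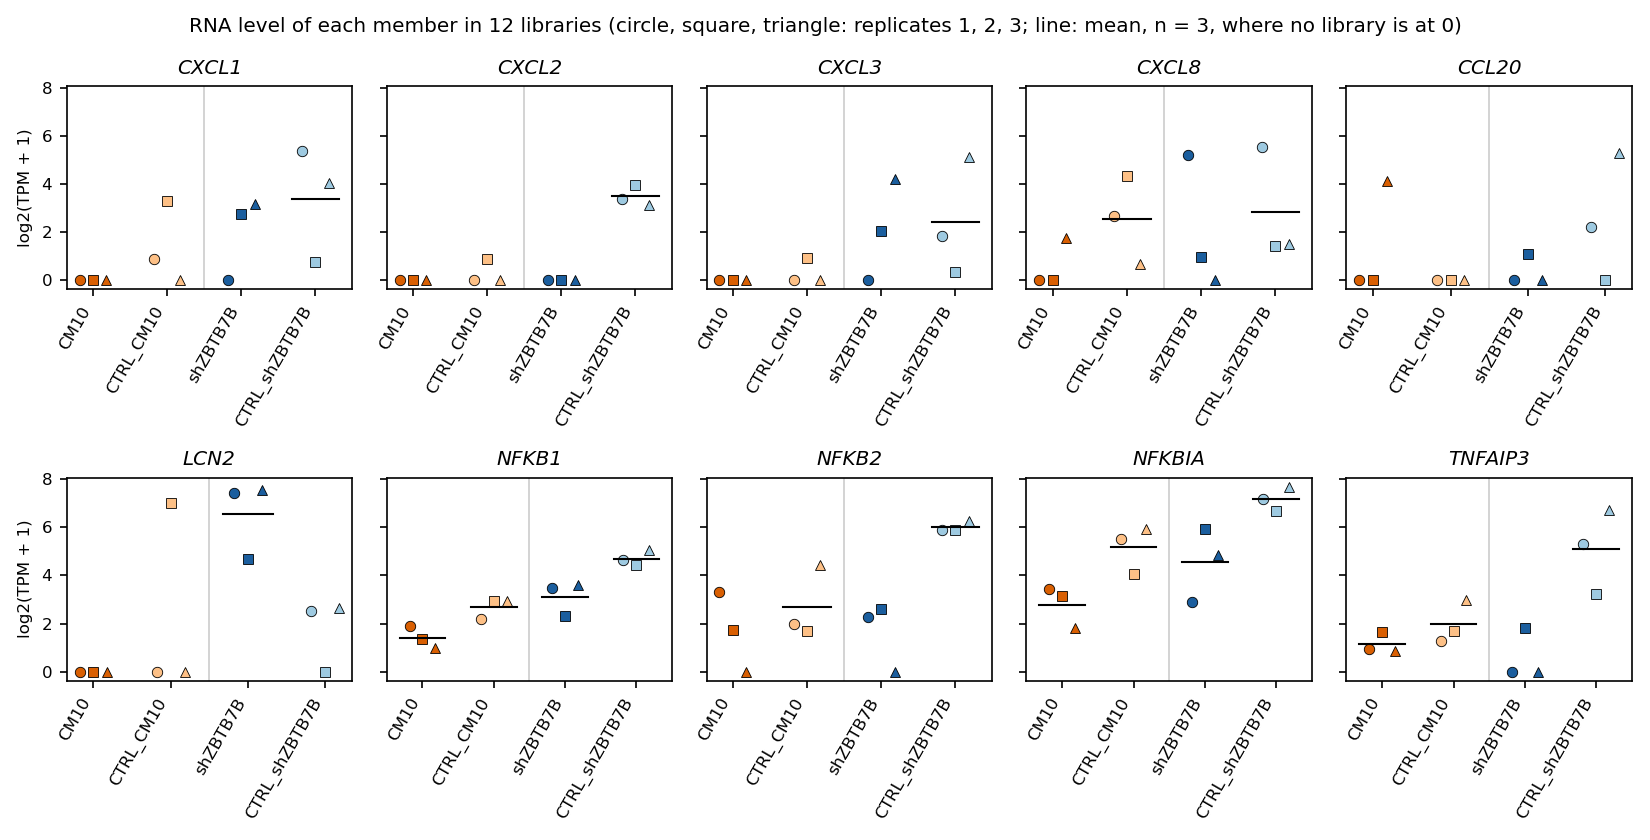
Level of each gene as log2(TPM + 1) in the 12 libraries, with replicates 1, 2 and 3 as circle, square and triangle, and the mean of the 3 libraries as a line where none is at 0. CTRL_shZBTB7B libraries sit highest for NFKB1, NFKB2, NFKBIA and TNFAIP3, LCN2 is high in 3 of 3 shZBTB7B libraries, and CXCL2 is at 0 in 3 of 3.

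With CM10, none of the 10 genes passed the test. CM10 and hairpin libraries were each set against their matching controls by limma on log2(TPM + 1), a scale that understates the change of low genes, among genes with at least 1 TPM in at least 3 of 6 libraries, and a gene was called at a Benjamini-Hochberg adjusted p under 0.05. Of the members, 5 entered this test and 0 were called in either direction, whereas 13.6% of all 12529 genes were called higher and 18.3% lower. At an unadjusted p under 0.05 there were 2, NFKBIA and CXCL8. The median fold change of the 5 was -1.28 on the log2 scale, beside -1.004 for all genes tested.

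NFKBIA, which encodes IkB alpha, the inhibitor that NF-kB itself induces, came nearest. It had 9.69, 7.78 and 2.53 TPM in CM10 libraries, against 44.78, 15.62 and 60.72 TPM in CTRL_CM10 libraries. All 3 CM10 libraries lay below all 3 controls, which held for 28.9% of all genes tested. The means were 6.67 ± 3.71 TPM with CM10 and 40.4 ± 22.9 TPM in controls (SD, n = 3 each), with a log2 fold change of -2.38 (SE 0.93, limma adjusted p = 0.05781) or -1.38 relative to the median gene. With quantile normalization the adjusted p was 0.03076, after rescaling without the MTRNR2L genes 0.006166, and without CTRL_CM10 replicate 2 it was 0.04061. It was 0.08697 with a pseudocount of 0.1 and up to 0.2298, without CM10 replicate 3, in the other fits that left out 1 library.

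NFKB1, which encodes a precursor that is cut to a DNA-binding subunit of NF-kB, had 2.74, 1.54 and 1.00 TPM in CM10 libraries, against 3.62, 6.73 and 6.64 TPM in CTRL_CM10 libraries. The groups did not overlap here either, and the log2 fold change of -1.28 (SE 0.82, limma adjusted p = 0.2128) was close to that of the median gene. After rescaling without the MTRNR2L genes the adjusted p was 0.0445. NFKB2, the corresponding precursor of the non-canonical arm of the pathway, had 8.96, 2.32 and 0 TPM with CM10 and 2.93, 2.27 and 20.57 TPM in controls. Here the groups overlapped over most of their range, and the log2 difference was -1.02 (SE 1.01, limma adjusted p = 0.4216), or between -1.84 without CM10 replicate 1 and -0.16 without CTRL_CM10 replicate 3. TNFAIP3, a ubiquitin-editing enzyme that shuts NF-kB signaling down, had 0.94, 2.10 and 0.80 TPM with CM10 and 1.44, 2.27 and 6.99 TPM in controls. Only control replicate 3 stood above 2.27 TPM, the groups overlapped, and the log2 difference was -0.85 (SE 0.76, limma adjusted p = 0.3692), or between -1.21 without CTRL_CM10 replicate 1 and -0.35 without CTRL_CM10 replicate 3.

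The chemokines were almost all at 0 with CM10. CXCL1, CXCL2 and CXCL3, which attract neutrophils through CXCR2, were listed at 0 in 3 of 3 CM10 libraries. CTRL_CM10 libraries had 0.86, 8.66 and 0 TPM of CXCL1, while CXCL2 (0.84 TPM) and CXCL3 (0.88 TPM) were above 0 in replicate 2 alone. The CTRL_CM10 signal of these 3 genes thus came mainly from 1 library, replicate 2, and the genes were too low to enter the test. CXCL8, the most studied neutrophil chemokine, had 0, 0 and 2.38 TPM with CM10 and 5.29, 18.89 and 0.60 TPM in controls. CM10 replicate 3 lay above control replicate 3, so the groups overlapped, and the log2 difference was -1.96 (SE 0.91, limma adjusted p = 0.09552). With the replicate number as a block the adjusted p was 0.03925, and without CM10 replicate 3 it was 0.045. Without CTRL_CM10 replicate 2 the log2 difference was -1.08 (adjusted p = 0.3046) and with quantile normalization -1.30 (adjusted p = 0.4037). CCL20, which attracts cells that carry CCR6, had 0, 0 and 16.50 TPM with CM10 and was listed at 0 in 3 of 3 controls. LCN2, an iron-siderophore-binding protein of the innate response, stood at 0 in all 3 CM10 libraries, and among controls only replicate 2 had any, with 127.94 TPM. Each of these 2 genes rested on 1 library, and neither entered the test.

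With the hairpin against ZBTB7B the members split. LCN2 rose, and NFKB2 and TNFAIP3 fell. CXCL2 was also called lower, but it was listed at 0 in every hairpin library and entered the test only through its controls, where it could differ in no other direction. Of the 10 genes tested 1 was thus called higher and 3 lower, or 2 lower when CXCL2 is left aside, beside 0.717% and 11% of all 13665 genes. The members' groups did not overlap for 1 gene that was higher and 5 that were lower, beside 3.02% and 42.4% of all genes. The median of the members was -1.86 on the log2 scale and that of all genes -1.45. These 4 calls were sensitive to single libraries. They were lost in 5 of the 6 fits that left out 1 library and held only without shZBTB7B replicate 2. All 4 were lost as well with no filter on low values and with quantile normalization. With a pseudocount of 0.1 only CXCL2 held, and LCN2, NFKB2 and TNFAIP3 were lost (limma adjusted p = 0.08698, 0.08686 and 0.08145). After rescaling without the MTRNR2L genes NFKB2 and TNFAIP3 were lost (limma adjusted p = 0.05012 and 0.05752), while LCN2 and CXCL2 held (0.04979 each).

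LCN2 had 168.88, 24.95 and 188.37 TPM in shZBTB7B libraries, against 4.68, 0 and 5.25 TPM in CTRL_shZBTB7B libraries. Every hairpin library was above every control, with replicate 2 the lowest in both groups. The log2 fold change was 4.84 (SE 1.11, limma adjusted p = 0.04038), 6.29 above the median gene. Without shZBTB7B replicate 2 it was 5.77 with an adjusted p of 0.006737, and over the other 5 fits that left out 1 library the adjusted p reached 0.1394. The summed level of 12 colon carcinoma markers, mostly keratins and LGALS4, was 1906.95, 364.22 and 675.06 TPM in shZBTB7B libraries and 71.67, 60.67 and 2307.73 TPM in CTRL_shZBTB7B libraries. Of the 8 list genes tested 0 were called by limma (1 at an unadjusted p under 0.05), in a comparison whose calls depended on single libraries. The part of epithelial content in the LCN2 result was not tested.

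NFKB2 had 3.80, 5.06 and 0 TPM in shZBTB7B libraries, against 58.12, 58.73 and 75.94 TPM in CTRL_shZBTB7B libraries. All controls lay far above all hairpin libraries and close together, and the log2 fold change was -4.40 (SE 0.91, limma adjusted p = 0.03836). Leaving out 1 library moved the adjusted p between 0.006174, without shZBTB7B replicate 2, and 0.1394. TNFAIP3 had 0, 2.53 and 0 TPM with the hairpin and 38.52, 8.33 and 105.19 TPM in controls. Its groups did not overlap, although the controls spanned a wide range, and the log2 fold change was -4.48 (SE 1.10, limma adjusted p = 0.04351, or 0.01508 without shZBTB7B replicate 2). CXCL2 was listed at 0 in 3 of 3 shZBTB7B libraries, against 9.28, 14.71 and 7.65 TPM in CTRL_shZBTB7B libraries. Its limma call carries the limit given above (adjusted p = 0.03836, or 0.003977 without shZBTB7B replicate 2), and no fold is given against a group at 0.

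**Figure D3:**
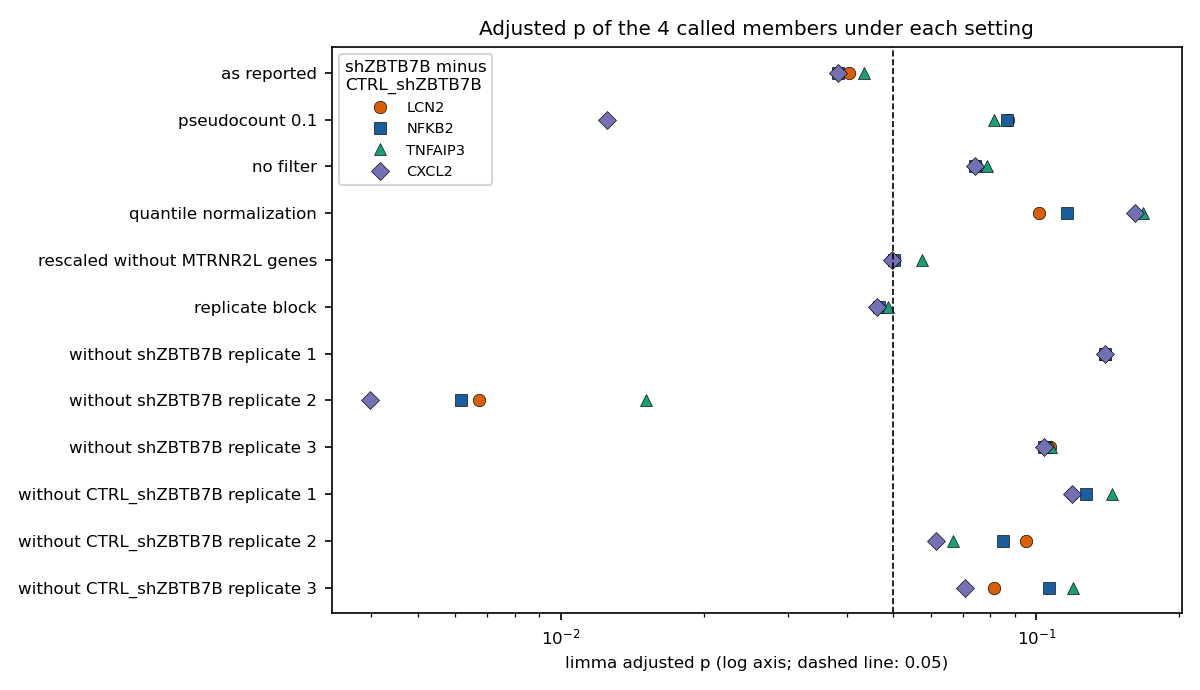
Limma adjusted p (log axis) of LCN2, NFKB2, TNFAIP3 and CXCL2 in shZBTB7B minus CTRL_shZBTB7B, as reported, under 5 other settings and with each library left out in turn, with a dashed line at 0.05. Leaving out shZBTB7B replicate 2 gives the smallest values, between 0.003977 and 0.01508, and leaving out any other library puts all 4 genes above 0.05.

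NFKBIA and NFKB1 were lower in every hairpin library than in every control but were not called. NFKBIA had 6.37, 60.35 and 28.19 TPM in shZBTB7B libraries, against 145.60, 102.67 and 205.25 TPM in CTRL_shZBTB7B libraries, with means of 31.6 ± 27.2 and 151 ± 51.5 TPM (SD, n = 3 each). Its log2 fold change was -2.63 (SE 0.89, limma adjusted p = 0.07347), and without shZBTB7B replicate 2, the hairpin library with most NFKBIA, the adjusted p was 0.01597. Without shZBTB7B replicate 1 the log2 fold change was -1.79, and the adjusted p reached 0.2116 without CTRL_shZBTB7B replicate 3. NFKB1 had 10.06, 3.93 and 11.07 TPM with the hairpin and 23.66, 20.74 and 31.90 TPM in controls, with means of 8.35 ± 3.86 and 25.4 ± 5.79 TPM (SD, n = 3 each). The log2 fold change of -1.58 (SE 0.77, limma adjusted p = 0.1573) differed little from that of the median gene.

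The remaining chemokines overlapped between the hairpin and its controls. CXCL1 had 0, 5.67 and 7.91 TPM in shZBTB7B libraries, against 40.24, 0.70 and 15.49 TPM in CTRL_shZBTB7B libraries, a log2 difference of -1.43 (SE 1.37, limma adjusted p = 0.4327). CXCL3 had 0, 3.17 and 17.64 TPM with the hairpin and 2.52, 0.26 and 34.17 TPM in controls, a log2 difference of -0.34 (SE 1.45, limma adjusted p = 0.8694). In both groups of both genes 1 library stood well above the lowest, and the groups overlapped. CXCL8 had 36.03, 0.95 and 0 TPM with the hairpin and 45.15, 1.71 and 1.84 TPM in controls, a log2 difference of -0.77 (SE 1.60, limma adjusted p = 0.7234). CCL20 had 0, 1.11 and 0 TPM with the hairpin and 3.57, 0 and 38.10 TPM in controls, a log2 difference of -2.13 (SE 1.18, limma adjusted p = 0.2009). Replicate 1 carried nearly all CXCL8 of both groups and control replicate 3 nearly all CCL20, so these genes gave no difference that this spread could resolve. Leaving out 1 library moved the log2 difference of CXCL1 between -2.74 (without CTRL_shZBTB7B replicate 2) and -0.44 (without CTRL_shZBTB7B replicate 1), and that of CCL20 between -3.38 (without CTRL_shZBTB7B replicate 2) and -0.74 (without CTRL_shZBTB7B replicate 3).

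**Figure D4:**
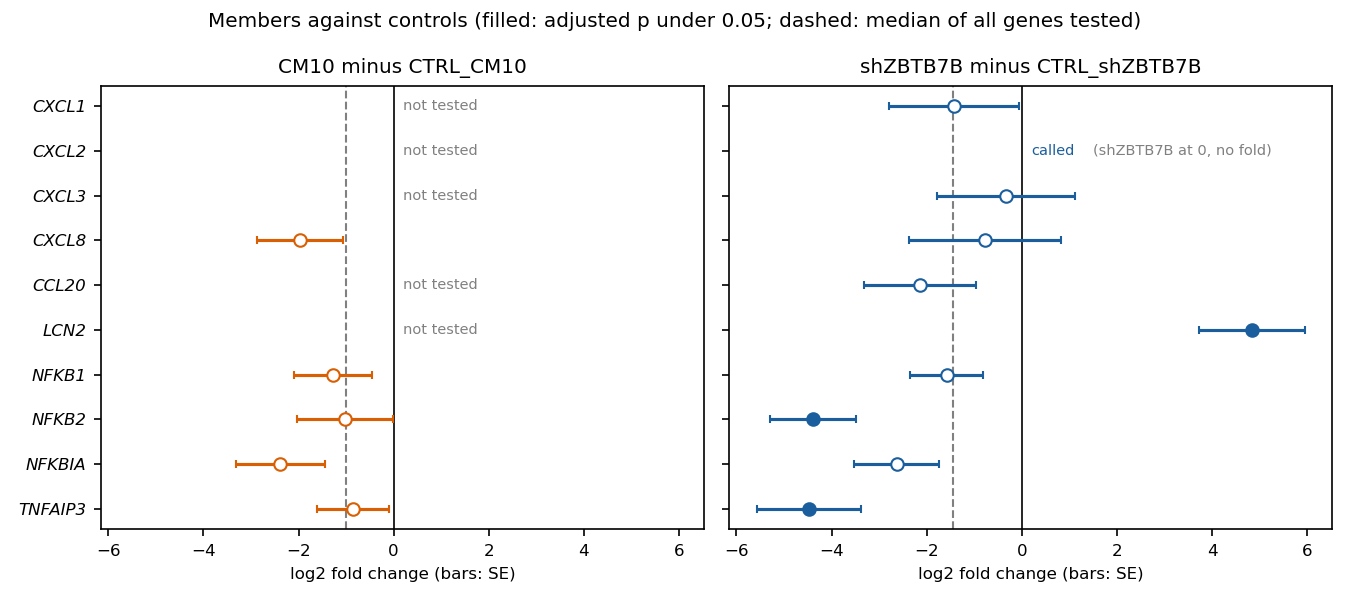
Log2 fold change with its standard error for each gene tested in CM10 minus CTRL_CM10 (left) and shZBTB7B minus CTRL_shZBTB7B (right), filled where the limma adjusted p is under 0.05, with a dashed line at the median of all genes (-1.004 and -1.45). In the hairpin comparison LCN2 is the 1 called gene right of 0, NFKB2 and TNFAIP3 are called left of it, and CXCL2 is called with no fold shown.

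The sum and the mix of CXC chemokines both differed between libraries. CXCL1, CXCL2, CXCL3 and CXCL8 summed to 0, 0 and 2.38 TPM in CM10 libraries, against 6.15, 29.27 and 0.60 TPM in CTRL_CM10 libraries. The sums were 36.03, 9.79 and 25.55 TPM in shZBTB7B libraries, against 97.19, 17.38 and 59.15 TPM in CTRL_shZBTB7B libraries, with overlapping groups in both comparisons. CXCL8 made up 100, 9.70 and 0% of the sum in shZBTB7B libraries and 46.5, 9.84 and 3.11% in CTRL_shZBTB7B libraries. In shZBTB7B replicate 1, CXCL8 was thus the 1 chemokine of the cluster above 0, and in replicate 3 it was the 2 copies CXCL1 and CXCL3.

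The ratio of 2 genes in 1 library does not move with the scaling of that library. NFKBIA over NFKB1 was 3.54, 5.05 and 2.53 in CM10 libraries, against 12.4, 2.32 and 9.14 in CTRL_CM10 libraries. It was 0.633, 15.4 and 2.55 in shZBTB7B libraries, against 6.15, 4.95 and 6.43 in CTRL_shZBTB7B libraries. The ranges overlapped in both comparisons, and the spread was smallest in CTRL_shZBTB7B. NFKB2 over NFKB1 was 3.27, 1.51 and 0 with CM10 and 0.809, 0.337 and 3.10 in its controls. With the hairpin it was 0.378, 1.29 and 0, against 2.46, 2.83 and 2.38 in CTRL_shZBTB7B libraries, so NFKB2 was low relative to NFKB1 in all 3 hairpin libraries.

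The CM10 effect and the hairpin effect were compared for the 5 members that entered both tests. In a limma contrast over all 12 libraries 0 of 5 members were called, beside 0% of all 11937 genes, of which 1133 had an unadjusted p under 0.05. TNFAIP3 had the widest gap, with a CM10 effect 3.63 above the hairpin effect on the log2 scale (SE 1.28, unadjusted p = 0.0115, adjusted p = 0.4652). NFKB2 followed with 3.37 (SE 1.44, unadjusted p = 0.03201, adjusted p = 0.4967). The effects on NFKBIA differed by 0.25 (SE 1.35), those on NFKB1 by 0.30 (SE 1.05) and those on CXCL8 by -1.20 (SE 1.88). That TNFAIP3 and NFKB2 were called with the hairpin and not with CM10 was therefore not shown to be a difference between the treatments.

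The 2 sets of controls, both labelled as HT29 controls, were far apart for the same genes. NFKB2 was 58.12 to 75.94 TPM in CTRL_shZBTB7B and 2.27 to 20.57 TPM in CTRL_CM10. Of the 8 members with at least 1 TPM in at least 3 of these 6 libraries, 5 were higher in CTRL_shZBTB7B without overlap. They were CXCL2, NFKB1, NFKB2, NFKBIA and TNFAIP3, beside 43% of 13498 genes that were higher without overlap. CXCL2 had 0, 0.84 and 0 TPM in CTRL_CM10 libraries, so it passed only through CTRL_shZBTB7B and could differ in no other direction. Of the 8 members 0 were lower without overlap, a direction not counted over all genes. NFKB1 in shZBTB7B libraries (3.93 to 11.07 TPM) overlapped those of CTRL_CM10 (3.62 to 6.73 TPM). The experiment and the group cannot be told apart in such a comparison.

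Levels of other cell types moved with the members. Endothelial markers (VWF, PECAM1, CDH5, KDR, CLDN5, EGFL7) summed to 9.35, 16.98 and 13.36 TPM in shZBTB7B libraries, against 471.96, 228.9 and 415.82 TPM in CTRL_shZBTB7B libraries. All 6 were called lower with the hairpin (11% of all genes, and 42.4% were lower without overlap). Like all other hairpin calls, these were lost in 5 of 6 fits that left out 1 library. VWF and CDH5, the most specific of them, were listed at 0 in 3 of 3 shZBTB7B libraries, and KDR had 0, 0.83 and 0 TPM there. VWF, CDH5 and KDR thus entered the test only through their controls and could be called only lower. Fibroblast markers summed to 61.64, 327.35 and 97.63 TPM in shZBTB7B libraries, against 1340.54, 1845.11 and 3373.74 TPM in CTRL_shZBTB7B libraries. Of these, 5 of 7 were called lower, and the calls were lost in the same 5 fits. The part of endothelial and fibroblast content in the lower NFKB2, TNFAIP3 and CXCL2 was not tested. In the CM10 table the endothelial sum was 36.93, 1.92 and 2.38 TPM in CM10 and 27.98, 11.19 and 254.46 TPM in CTRL_CM10 libraries, with 0 of the 2 markers tested called by limma (1 at an unadjusted p under 0.05). Other lists moved with CM10. Of 10 monocyte and macrophage markers tested 8 were called lower, although the summed level, mostly LYZ, overlapped (2960.1 to 3417.27 TPM in CM10, 241.15 to 5094.9 TPM in CTRL_CM10). B and plasma cell markers summed to 8.66, 16.5 and 65.96 TPM in CM10 libraries, against 300.48, 394.16 and 558.32 TPM in CTRL_CM10 libraries, with 2 of 3 called lower. Of the T cell markers 2 of 6 were called lower and 1 higher, and of the colon carcinoma markers 3 of 9 lower, beside 18.3% lower and 13.6% higher over all genes. MZB1 of the B and plasma list and CD3D of the T cell list were listed at 0 in 3 of 3 CM10 libraries and entered the test only through their controls. The part of these lists in the lower NFKBIA and NFKB1 values with CM10 was not tested. Neutrophil markers, mostly S100A8 and S100A9, summed to 93.17, 144.97 and 196.8 TPM in shZBTB7B and 368.7, 34.58 and 192.27 TPM in CTRL_shZBTB7B libraries, while CSF3R was listed at 0 in all 6 CM10 and shZBTB7B libraries.

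Over the 12 libraries, which share their scaling and their number of genes above 0, NFKBIA ran with the endothelial sum at a Spearman rho of 0.89 (Pearson r 0.87), NFKB2 at 0.84 (0.91) and TNFAIP3 at 0.73 (0.80). CXCL1 ran with the neutrophil sum at 0.81 (0.81) and LCN2 with both the colon carcinoma sum at 0.75 (0.76) and the neutrophil sum at 0.75 (0.55). With the fibroblast sum NFKBIA stood at 0.85 (0.83), TNFAIP3 at 0.70 (0.65) and NFKB2 at 0.69 (0.70). TNFAIP3 and the T cell sum gave 0.51 (0.81). High values were thus not limited to endothelial markers, and the pairs named were picked as high ones among all members and lists. These values describe 12 libraries of 4 groups and carry no test. Among the members, the 2 copies CXCL1 and CXCL3 were alike (0.86, r 0.75), as were NFKBIA and TNFAIP3 (0.85, r 0.79) and NFKB2 and TNFAIP3 (0.78, r 0.85). CXCL3 and CXCL8 were not (0.04, r -0.12), and LCN2 ran apart from NFKB2 (-0.22, r -0.30).

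**Figure D5:**
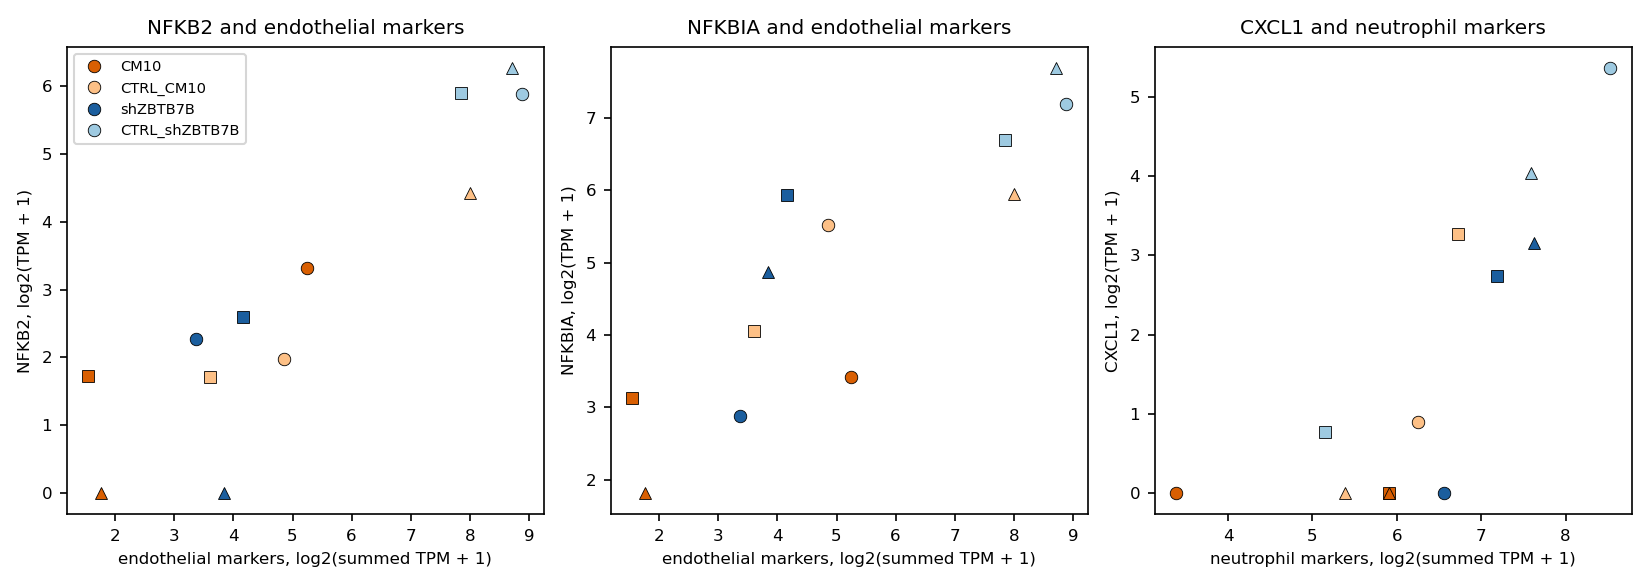
NFKB2 and NFKBIA against the summed endothelial markers, and CXCL1 against the summed neutrophil markers, as log2(TPM + 1) in the 12 libraries (color: group; circle, square, triangle: replicates 1, 2, 3). The 3 CTRL_shZBTB7B libraries lie at the upper right of both endothelial panels, with endothelial sums of 228.9 to 471.96 TPM.

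Among 12814 genes with at least 1 TPM in at least 6 libraries, the 5 whose pattern was most like the summed level of CXCL1, CXCL2, CXCL3 and CXCL8 were CCNB1, CDC20, EZH2, DTYMK and DPP3, with Spearman rho between 0.90 and 0.97. CCNB1, CDC20, EZH2 and DTYMK, of which CCNB1 and CDC20 drive mitosis, DTYMK makes a DNA precursor and EZH2 methylates histones, were listed at 0 in 3 of 3 CM10 libraries each, and the CXC sum in 2 of 3. CCNB1 was highest in CTRL_shZBTB7B replicate 3 with 38.18 TPM.

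The wider pathway was read from 102 further genes, which are other subunits, inhibitors, kinases and adaptors, ligands and receptors, targets, CXC chemokines and receptors of the members. With CM10, 10 of 77 tested were called higher (13.0%) and 17 lower (22.1%), close to the shares over all genes, with a median log2 fold change of -1.52 beside -1.004. With the hairpin, 1 of 88 was called higher (1.14%) and 12 lower (13.6%), with a median of -2.24 beside -1.45. Of the 17 lower with CM10, 5 were listed at 0 in all CM10 libraries, NFKBIE, TRADD, TBK1, BCL2A1 and CXCL13. Of the 12 lower with the hairpin 1 was listed at 0 in all hairpin libraries, SELE. These entered the test only through their controls and could differ in no other direction. That leaves 12 and 11 with a treated library above 0. The same limit holds for called genes under 1 TPM in all treated libraries, TRAF3 and IKBKE with CM10 and IL6 with the hairpin. Conversely, ACKR2 with CM10 and PIGR with the hairpin had all controls under 1 TPM and could be called only higher. Hairpin calls among the 102 genes fell to 0 in 5 of 6 fits that left out 1 library.

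The other NF-kB subunits went different ways with CM10. REL, a subunit of lymphoid cells, rose, with 310.59, 1262.98 and 1475.43 TPM in CM10 libraries, against 266.71, 3.80 and 18.56 TPM in CTRL_CM10 libraries (log2 fold change 4.83, limma adjusted p = 0.01656). RELB, the partner of the NFKB2 product, fell, with 1.01, 0 and 0 TPM in CM10 libraries, against 5.35, 3.28 and 4.14 TPM in CTRL_CM10 libraries (log2 fold change -2.04, limma adjusted p = 0.03255). RELA, the main transactivating subunit, had 15.79, 0 and 1.69 TPM in CM10 and 21.2, 13.44 and 29.68 TPM in CTRL_CM10 libraries and was not called. With the hairpin RELA fell, with 0, 14.31 and 0 TPM in shZBTB7B libraries, against 60.74, 68.5 and 49.03 TPM in CTRL_shZBTB7B libraries (-4.59, limma adjusted p = 0.04456). The library that retained RELA was again shZBTB7B replicate 2. REL had 930.24, 8.48 and 3418.8 TPM with the hairpin and 25.6, 14.22 and 16.48 TPM in controls and was not called (limma adjusted p = 0.1453), with replicate 2 below all 3 controls.

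Inhibitors and signal carriers were called in both directions with CM10 (values in parentheses here and below are log2 fold changes), and the counts stand beside 13.6% of all genes called higher and 18.3% lower with CM10 and 0.717% and 11% with the hairpin. Of 9 inhibitors, 1 was called higher, the deubiquitinase OTULIN (log2 fold change 3.18), and 1 lower, the IkB protein NFKBIE. NFKBIE had 0 TPM in 3 of 3 CM10 libraries, against 7.71, 3.85 and 7.55 TPM in CTRL_CM10 libraries. It entered the test only through its controls and could be called only lower. With the hairpin 0 of the 9 were called by limma (2 at an unadjusted p under 0.05). Of 26 kinases and adaptors, CM10 gave 2 higher, the ubiquitin ligase TRAF6 (5.73) and the kinase IRAK4 (6.36), both of the interleukin-1 and Toll-like receptor route, and 6 lower. For TRAF6 and IRAK4, CTRL_CM10 replicate 1 was the highest control (34.8 and 107.61 TPM). Neither was called with the hairpin, where replicate 2 was the lowest hairpin library (1.89 and 11.81 TPM). REL above and IL1RAP, CFLAR, CCL5 and CCR6 below shared this order of libraries, whose cause was not tested. Of the 6 lower, those with the smallest p, the TNF receptor adaptor TRADD and the kinase TBK1, were listed at 0 in 3 of 3 CM10 libraries. TRADD and TBK1 entered the test only through their controls. So did TRAF3 (0.26, 0 and 0 TPM with CM10) and IKBKE (0.64, 0 and 0 TPM), which were also among the 6. With the hairpin 1 of 27 was called, IKBKG, the scaffold of the IkB kinase (-3.93). Of the ligands and receptors, CM10 gave 2 of 10 higher, IL1RAP (5.24) and IL17RA (2.31), and 2 lower, IL1R1 (-4.13) and LTB (-3.30). The hairpin gave 4 of 15 lower, TNFRSF1B (-4.94) and NOD1 (-3.89) with the smallest p, and 0 higher.

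Of the other targets of NF-kB, CM10 gave 2 of 19 higher and 4 lower, beside 13.6% and 18.3% of all genes. CCL5, a T cell chemokine, had 76121, 51472 and 63268 TPM in CM10 libraries, against 6574, 49.02 and 276.07 TPM in CTRL_CM10 libraries (7.13, SE 2.27, limma adjusted p = 0.02656). No member came near such levels. CFLAR, an inhibitor of caspase activation, rose as well (4.64), while CFB, a complement factor, fell (-2.52). BCL2A1, a survival protein, was listed at 0 in 3 of 3 CM10 libraries, against 5.93, 20.41 and 9.21 TPM in CTRL_CM10 libraries. It entered the test only through its controls. With the hairpin, 1 of 24 was higher and 5 were lower, beside 0.717% and 11% of all genes. PIGR, the epithelial transporter of IgA, had 104.23, 13.1 and 100.96 TPM in shZBTB7B libraries, against 0.91, 0.11 and 0.18 TPM in CTRL_shZBTB7B libraries (5.30, limma adjusted p = 0.03836). With all controls under 1 TPM, PIGR entered the test only through the hairpin libraries and could be called only higher. As for LCN2, shZBTB7B replicate 2 was the lowest of the hairpin group. Complement C3 fell (-6.16), and SELE, an adhesion molecule of endothelial cells, was listed at 0 in 3 of 3 shZBTB7B libraries, against 6.67, 6.09 and 12.25 TPM in CTRL_shZBTB7B libraries. IL6, also among the 5, had 0, 0.95 and 0 TPM with the hairpin and 5.76, 39.99 and 7.91 TPM in controls. SELE and IL6 entered the test only through their controls. CCL5 had 63373, 518.73 and 41982 TPM with the hairpin and 1110, 23.62 and 1857 TPM in controls and was not called (limma adjusted p = 0.1222).

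Of the other CXC chemokines, CM10 gave 3 of 5 lower and 0 higher, with CXCL14 (-4.47) and CXCL16 (-3.08) at the smallest p, beside 18.3% and 13.6% of all genes. The remaining call was CXCL13, which was listed at 0 in all CM10 libraries and entered the test only through its controls. The hairpin gave 0 of 8 by limma (1 at an unadjusted p under 0.05). Receptors of the members were called higher in 2 of 5 with CM10 (13.6% of all genes). CCR6, the receptor of CCL20, rose with 226.42, 289.44 and 197.31 TPM in CM10 libraries, against 14.12, 0.99 and 1.41 TPM in CTRL_CM10 libraries (5.82, limma adjusted p = 0.003444), while CCL20 itself was above 0 in 1 of these 6 libraries. ACKR2, a scavenger of CC chemokines, had 4.72, 11.34 and 6.14 TPM with CM10 and 0.59, 0.27 and 0 TPM in controls (2.65). It entered the test only through the CM10 libraries and could be called only higher. With the hairpin 1 of 4 was called lower (11% of all genes). ACKR1, which binds CXCL1 and CXCL8 and marks venules, fell with 0, 3.65 and 0 TPM in shZBTB7B libraries, against 162.97, 149.7 and 82.64 TPM in CTRL_shZBTB7B libraries (-6.25, limma adjusted p = 0.03836), beside the endothelial list.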

How the data were processed

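Libraries were made with biotin probe capture, per the labels. Reads were mapped by the authors with HISAT on hg19, and RSEM gave the gene abundances (versions not given in the sources used here). Each experiment has 1 table of 18665 genes by 6 libraries. Its headers name no unit, and the deposited numbers were read as TPM because columns add up to between 999999 and 1000000 and RSEM reports that unit.

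Genes with at least 1 TPM in at least 3 of 6 libraries were tested as log2(TPM + 1) with limma 3.58.1 in R 4.3.3 (a term for group, moderated variances with a trend, two-sided), with Benjamini-Hochberg adjustment over all genes tested. The difference between the effects was a contrast over 12 libraries, whose tables were scaled per library. Sequences, levels and figures were handled in Python 3.11.15 (numpy 2.4.6, pandas 2.3.3, scipy 1.17.1). The fits were tested on simulated data. Alternatives were a pseudocount of 0.1, no filter, quantile normalization, rescaling without the MTRNR2L genes, a replicate block, and fits without each library in turn.

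The members, the pathway and marker lists and the tests were chosen with earlier results of these data known. Named were all members, of each pathway list the 2 called genes with the smallest p per direction, the 5 genes most like the CXC sum, and ZBTB7B and ALDH1A1. Called pathway genes with all libraries of 1 group under 1 TPM were named as well. NFKBIE, TRADD, TBK1, BCL2A1, CXCL13 and SELE have no fold because 1 group was at 0. PCR or capture bias could not be assessed from TPM.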

Additional observations from a re-analysis of the deposited data

How the results depend on the processing

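Counts of calls and, with CM10, the balance of their directions both moved with the settings. With CM10, 4003 genes were called, against 1964 with a pseudocount of 0.1, 7011 after rescaling without the MTRNR2L genes, and 1257 (without CTRL_CM10 replicate 3) to 5776 (without CM10 replicate 1) with 1 library left out. Of the members 0 were called as reported, 1 with quantile normalization, 2 without the MTRNR2L genes, 1 with the block, and 0 to 1 with a library left out. The pathway genes called were 27 as reported, 15 with a pseudocount of 0.1, 51 without the MTRNR2L genes and 11 to 40 with a library left out. The share of CM10 calls that were higher was 42.6%. It was 63.6% with a pseudocount of 0.1, 53.2% with no filter, 55.5% with quantile normalization and 23.3% without the MTRNR2L genes. With 1 library left out it ran from 34% (without CM10 replicate 1) to 71.0% (without CTRL_CM10 replicate 1). The median of all genes was -1.004, -0.27 with quantile normalization and -1.78 without the MTRNR2L genes.

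With the hairpin, 1602 genes were called, against 468 with a pseudocount of 0.1, 0 with no filter (5807 at an unadjusted p under 0.05), 0 with quantile normalization (3085 at an unadjusted p under 0.05), 374 without the MTRNR2L genes, and 0 to 6887 with a library left out (6887 without shZBTB7B replicate 2, 0 in each other fit). Of the members 4 were called as reported, 1 with a pseudocount of 0.1 (CXCL2), 0 with no filter and 0 with quantile normalization. Without the MTRNR2L genes 2 were called (CXCL2 and LCN2), and with a library left out 0 to 5. The pathway genes called were 13, and 4, 0, 0 and 6 under the same settings and 0 to 48 with a library left out. The cause was not tested. The log2 difference of CXCL3 was 0.78 and that of CXCL8 0.34 with quantile normalization, and with a library left out they ran between -1.40 and 1.02 and between -2.34 and 0.59.

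For the difference between the effects 0 genes were called, 2 with a pseudocount of 0.1, 1 with quantile normalization, 2 without the MTRNR2L genes and 0 to 1 with a library left out. That of NFKB1 was -0.63 and that of NFKBIA -0.76 without the MTRNR2L genes, and with a library left out NFKBIA ran between -0.59 and 0.94, CXCL8 between -2.55 and 0.38 and NFKB1 between -0.11 and 0.54.

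Replicate numbers did not pair the libraries. Deviations of same-numbered libraries correlated at -0.0788, -0.0474 and -0.0566 in the CM10 table and at 0.0143, 0.0281 and -0.0705 in the hairpin table. With the replicate number as a block 4805 genes were called with CM10 and 1387 with the hairpin, where the same 4 members kept their calls. TPM carries no depth, so what a value of 0 allows cannot be stated.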
